A study of Mus musculus with 12 samples.

Results

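The cytochrome P450 genes of the mouse colonic crypt were examined in 12 RNA-seq libraries. A gene was taken as a member of the family when its symbol began like a P450 name (Cyp, a family number, a subfamily letter and a gene number) or was Cyp51, did not end in -ps, and had at least 60 reads summed over the 12 libraries. Of 55471 genes listed, 108 had such a name and 39 reached 60 reads; 35 had no read in any library and 34 had fewer than 60. The 108 still held 7 pseudogenes whose names end in -ps and a number, and 1 antisense gene, Cyp4x1os, none of which was a member. The members were thus chosen by their summed reads, and levels are given below as description only. The members just inside the minimum were Cyp27b1 with 69 reads and Cyp11a1 with 112, and the genes just outside were Cyp2c40 and Cyp26b1 with 57 reads each. Of the 39 members, 23 belonged to families 1 to 3, 9 to family 4 and 7 to other families. In the fit across all genes 38 of the 39 were tested, and Cyp27b1 was removed by the filter on low counts. Cyp24a1 and Cyp4f15 would not have reached 60 reads from the 6 libraries with intact p53 alone, where they had 4 and 39 reads, against 132 and 209 in the 6 libraries with p53 deleted. Cyp11a1 would not have reached it from the deleted libraries alone, where it had 23 reads against 89. Nothing is read from setting the calls or the non-overlap of these genes against the share of all genes.

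Crypts were collected from the colon of 8-week-old C57BL/6J mice, female by the study's methods, in 4 groups of 3 mice, with 1 library per mouse. All 4 groups carried floxed p53 alleles. CBPWTp53-floxed mice had wild-type CBP and no Cre, and CBPAAp53-floxed mice carried in all cells a knock-in CBP allele in which a pair of serines was replaced by alanines (AA), so that these sites of the transcriptional coactivator cannot be phosphorylated. CBPWTp53ΔIEC and CBPAAp53ΔIEC mice carried in addition Villin-Cre, which deletes p53 in intestinal epithelial cells along the small and large intestine. None of the 38 members with a position lay on chromosome 16, which holds Crebbp (the gene of CBP), or on chromosome 11, which holds Trp53. Libraries held 11177430 to 18029125 reads assigned to genes.

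Cytochrome P450 enzymes are heme proteins of the endoplasmic reticulum or the mitochondria that insert an oxygen atom into their substrates, with electrons from P450 oxidoreductase or from ferredoxin. Families 1 to 3 are known for the oxidation of drugs, dietary compounds, steroids and arachidonic acid, and family 4 for the hydroxylation of fatty acids and eicosanoids. Most members of the other families have fixed roles in the synthesis or breakdown of sterols, bile acids, steroid hormones and vitamin D, while Cyp20a1 is an orphan enzyme. In the gut epithelium these enzymes meet compounds from food and microbes, and many P450 genes lie in tandem clusters of closely related copies. Positions of genes are given on GRCm38.

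The targeted gene was checked first. Trp53 was at 39.2, 44.6 and 45.5 CPM (reads scaled to a common library size after TMM normalisation) in the CBPWTp53-floxed libraries and 50.9, 52.5 and 43.5 CPM in CBPAAp53-floxed. It was at 10.4, 5.00 and 5.75 CPM in CBPWTp53ΔIEC and 7.65, 7.09 and 9.73 CPM in CBPAAp53ΔIEC. Trp53 was thus lower in all 6 deleted libraries than in all 6 floxed ones. The summed colon epithelium list, led by Car1, was at 15287 to 29727 TPM, and the distal colon Hox genes, led by Hoxb13, at 92.4 to 291 TPM, so that both were present in all 12 libraries. Lists of other cell types stayed low: the summed hepatocyte list was at 23.8 to 32.1 TPM (transcript share scaled for gene length), with Tat the most abundant gene, the leukocyte list at 5.77 to 11.1 TPM with Cd68 first, the stroma list at 2.02 to 6.73 TPM with Pdgfrb first, the endothelial list at 0.466 to 1.28 TPM with Cdh5 at 0 throughout, and the pancreatic list at 72.2 to 129 TPM, nearly all Cela1, with Cpa1 and Ctrb1 at 0.

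Several libraries stood apart from the others. The 8 alpha-defensin genes among the Paneth cell markers, which belong to the small intestine, summed to 19523 TPM in CBPWTp53ΔIEC replicate 1, 4501 in CBPAAp53ΔIEC replicate 3, 2201 in CBPAAp53ΔIEC replicate 1 and 966 in CBPAAp53-floxed replicate 2. In the other 8 libraries the sum was at most 33.2 TPM, and it was 0 in all 3 CBPWTp53-floxed libraries. Of the other 4 genes on the list of 12 Paneth cell markers, Lyz1, at 2281, 789, 410 and 122.5 TPM, and Mmp7, at 141, 54.2, 42.6 and 15.3 TPM, were also highest in these 4 libraries, in the same order, with at most 13.7 and 12.8 TPM in the others. Ang4 and Itln1 did not pick out the same 4. Ang4, the most abundant of the list, was highest in CBPAAp53-floxed replicate 3, at 11777 TPM, and Itln1 was at 222 TPM there against 150 and 91.3 TPM in CBPAAp53ΔIEC replicate 1 and CBPAAp53-floxed replicate 2. The whole list therefore summed to 12041 TPM in CBPAAp53-floxed replicate 3, against 25526, 10580, 5137 and 4316 TPM in the 4. Fabp6, the ileal bile acid binding protein, was at 1629, 500, 453 and 217 TPM in the 4 libraries high in alpha-defensins, in the same order, and at most 20.1 TPM in the others. The distal colon Hox genes summed to 92.4, 170, 139 and 142 TPM in the 4, in that order, and to 161 to 291 TPM in the other 8. The list of 15 small intestinal enterocyte markers, with Fabp2 the most abundant, summed to 6417, 3602, 1752 and 3183 TPM in the 4 and to 778 to 1713 TPM in the other 8. The calls among the P450 genes in the p53 comparisons were therefore also made without these 4 libraries. The X-inactivation transcript Xist was at 0.683 TPM in CBPAAp53-floxed replicate 1 and at 65.9 to 168 TPM in the other 11 libraries. The Y-linked Ddx3y, Kdm5d and Uty were at 0 in all 12, while Eif2s3y, also Y-linked, was not at 0 in every library. Summed with Xist it was at 0.683 TPM in CBPAAp53-floxed replicate 1.

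On the deposited TPM scale, which corrects for transcript length, 1 gene made up most of the P450 transcripts. Cyp2c55, a Cyp2c enzyme known to oxidise arachidonic acid, had a mean of 2581 TPM over the 12 libraries, or 60.4% of the summed P450 TPM. Its share was between 45.3% and 69.2% in single libraries. Group means of Cyp2c55 were 2342 ± 106 TPM (SD, n = 3) in CBPWTp53-floxed, 2102 ± 619 in CBPAAp53-floxed, 3272 ± 405 in CBPWTp53ΔIEC and 2608 ± 562 in CBPAAp53ΔIEC. The next levels were 331 TPM for its neighbour Cyp2c65, 173 for Cyp2d34, 154.5 for Cyp3a13, a Cyp3a enzyme of the mouse intestine, and 149 for the leukotriene hydroxylase Cyp4f14. Cyp2d26 was at 114, Cyp4b1 at 109.1, Cyp2c68 at 76.1, Cyp4f40 at 68.5 and the extrahepatic Cyp2s1 at 68.4 TPM. Cyp51, the lanosterol demethylase of cholesterol synthesis, was at 66.9 TPM, and Cyp2w1, known from fetal gut and colon tumours, at 12.7 TPM. At the low end stood Cyp4f15 at 1.67 TPM, Cyp24a1, which breaks down active vitamin D, at 0.61, Cyp27b1, which makes it, at 0.41, and Cyp11a1, the side-chain cleavage enzyme that starts steroid synthesis, at 0.34.

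**Figure D1:**
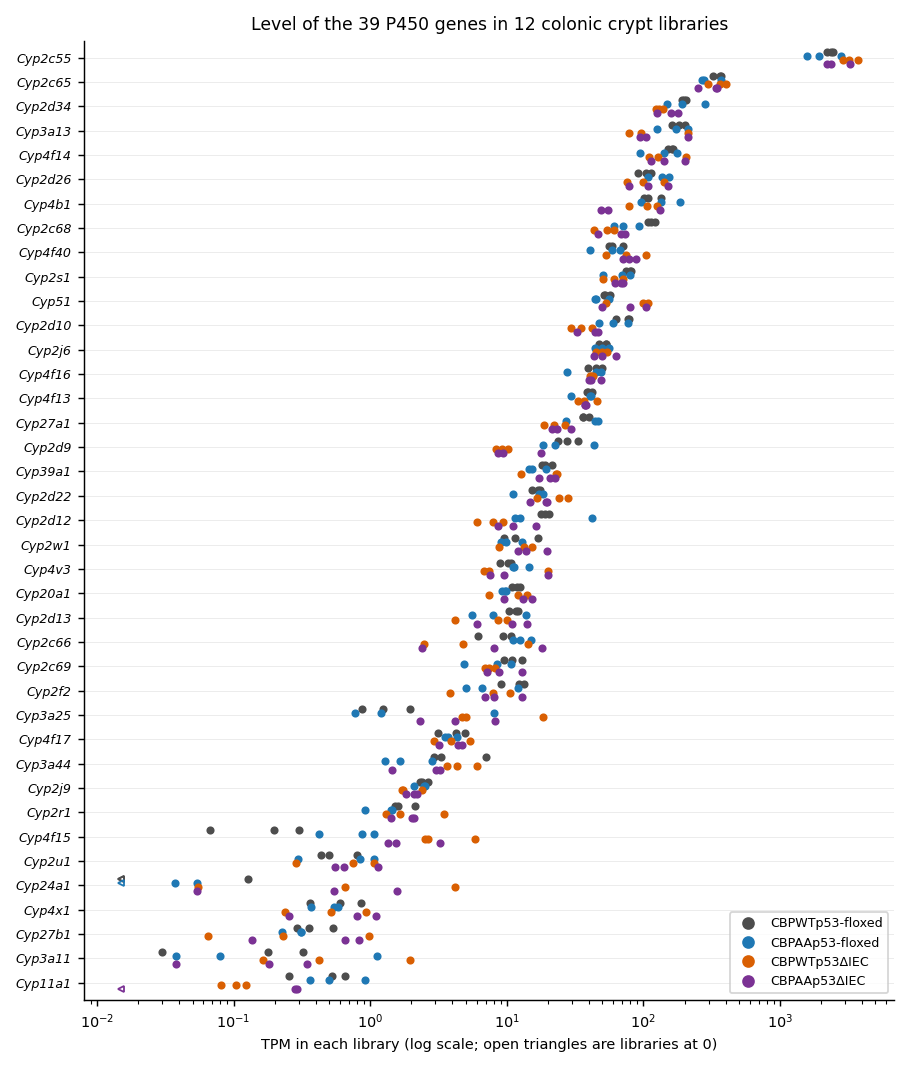
Deposited TPM (log axis) of the 39 P450 members, ordered by their mean over 12 libraries, with 1 point per library coloured by group. Open triangles at the axis mark libraries with 0 TPM; Cyp2c55 lies above every other member, at a mean of 2581 TPM.

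Members differed in how steady they were over the 12 libraries. The coefficient of variation of TPM was 11.1% for Cyp2j6 and for Cyp4f13 and 14.03% for Cyp2c65. It was 201% for Cyp24a1, 141% for Cyp3a11, 106% for Cyp3a25 and 100% for Cyp4f15. Some textbook P450 genes of the gut did not reach the minimum. Cyp1a1, the classic target of the aryl hydrocarbon receptor, had 8 reads over the 12 libraries, Cyp2b10 had 16 and the retinoic acid hydroxylase Cyp26a1 had 3. Cyp1b1, Cyp11b1 and Cyp2e1 were listed at 0 reads in all 12.

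The promoters of 3 genes called for p53 deletion, Cyp4f15, Cyp2d9 and Cyp2d10, and of 1 Cyp2d neighbour not called in the fit of all 12 libraries, Cyp2d26, are printed so that the motif matches can be seen; each runs 5′ to 3′ on the strand of the gene, from 250 bases before to 50 bases after the RefSeq start (build GRCm38.p6). They lie at chr17:32685409-32685708 (+) for Cyp4f15, chr15:82452127-82452426 (+) for Cyp2d9, chr15:82407145-82407444 (-) for Cyp2d10 and chr15:82794196-82794495 (-) for Cyp2d26. Capitals mark a p53 decamer (in Cyp4f15), a CCAAT box (CCAAT, or ATTGG on the other strand) and a TATA box (TATAAA, or TTTATA on the other strand).
Cyp4f15: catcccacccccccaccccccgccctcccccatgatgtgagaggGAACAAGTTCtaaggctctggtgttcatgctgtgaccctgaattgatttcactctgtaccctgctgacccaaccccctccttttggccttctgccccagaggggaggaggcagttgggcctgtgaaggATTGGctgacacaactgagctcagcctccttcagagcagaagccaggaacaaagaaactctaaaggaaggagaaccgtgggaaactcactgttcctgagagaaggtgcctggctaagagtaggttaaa
Cyp2d9: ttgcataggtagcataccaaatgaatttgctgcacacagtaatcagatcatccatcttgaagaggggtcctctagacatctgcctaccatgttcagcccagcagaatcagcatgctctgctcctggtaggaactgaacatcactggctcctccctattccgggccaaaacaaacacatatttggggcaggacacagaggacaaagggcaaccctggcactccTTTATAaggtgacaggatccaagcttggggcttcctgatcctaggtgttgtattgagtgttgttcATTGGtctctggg
Cyp2d10: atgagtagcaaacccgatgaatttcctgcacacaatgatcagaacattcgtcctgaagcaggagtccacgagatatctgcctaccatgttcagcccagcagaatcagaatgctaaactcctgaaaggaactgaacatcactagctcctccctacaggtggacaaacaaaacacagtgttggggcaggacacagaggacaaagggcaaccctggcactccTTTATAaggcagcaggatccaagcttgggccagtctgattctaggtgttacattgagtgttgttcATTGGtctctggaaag
Cyp2d26: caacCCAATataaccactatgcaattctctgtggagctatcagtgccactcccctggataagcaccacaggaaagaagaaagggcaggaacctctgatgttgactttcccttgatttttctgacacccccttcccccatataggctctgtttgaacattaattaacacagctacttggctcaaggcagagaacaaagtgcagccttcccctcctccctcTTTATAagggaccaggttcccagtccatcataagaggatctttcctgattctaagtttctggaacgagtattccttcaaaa
The p53 decamer match in Cyp4f15, GAACAAGTTC, began 206 bases before the start. Cyp2d9 and Cyp2d10 were identical at 252 of 296 aligned bases (82.9% of the alignment with gaps counted), and Cyp2d9 and Cyp2d26 at 172 of 261 (50.7% with gaps counted). The start used for Cyp2d9 lies 18940 bases inside the gene as drawn by GENCODE, so the 2 annotations do not share it.

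Motifs were searched on both strands of all 32851 RefSeq promoters of this length, and matches of different motifs could overlap. The p53 decamer occurred in 8.36% of all promoters and in 3 of the 36 promoters of the 30 members that matched by symbol, those of Cyp2c55, Cyp2f2 and Cyp4f15. The aryl hydrocarbon receptor core GCGTG occurred in 32.4% of all and in 9 of the 36. CCAAT occurred in 37.4% of all and in 23 of the 36, TATAAA in 13.6% and in 9, and TCACNCCAC, a sterol response element, in 1.24% and in 0. A match is a description of letters and not a bound site.

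The first comparison asked how P450 genes differed when p53 was deleted beside wild-type CBP. A gene was called when its log2 fold change was above 0.5 in size and its Benjamini-Hochberg adjusted p was under 0.05 in edgeR's quasi-likelihood test over 14610 genes. In CBPWT crypts 460 genes were called, 3.15% of those tested, and 4 of the members were among them. Cyp2d10, Cyp2d9 and Cyp2c68 fell, where 0.856% of all genes fell. Cyp4f15 rose, but it is a member only through its reads with p53 deleted. It is therefore not set against the 2.29% of all genes that rose. Leaving out 1 library at a time gave 0 to 7 members, with 0 without CBPWTp53-floxed replicate 2 or 3, 1 without CBPWTp53-floxed replicate 1 or CBPWTp53ΔIEC replicate 2 or 3, and 7 without CBPWTp53ΔIEC replicate 1; in these settings 0.00671% to 6.06% of all genes were called. Without the 4 libraries high in alpha-defensins there were 15, where 11.4% of all genes were called. The 4 were among them, Cyp51, Cyp2d22 and Cyp3a25 were higher in addition, and Cyp27a1, Cyp11a1, Cyp2d34, Cyp2c66, Cyp2c69, Cyp3a13, Cyp4f14 and Cyp4v3 were lower. The median log2 fold change was -0.02 over the members tested and 0.01 over all genes. In the same comparison 9 of 10 proliferation markers were called higher, and Pdgfrb, the most abundant stromal marker and the only one tested, was called lower (log2 fold change -0.97); their part in the P450 values was not tested. In bulk RNA, fewer cells of a type and less RNA per cell cannot be told apart.

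Among the enzymes of families 1 to 3, Cyp2d10 (chr15:82402846-82407195, minus strand) was at 50.3, 50.01 and 38.2 CPM in CBPWTp53-floxed and 22.9, 26.2 and 19.7 CPM in CBPWTp53ΔIEC. The groups did not overlap, and its log2 fold change was -1.01 (SE 0.17, adjusted p = 0.0232, edgeR). Cyp2d9 (chr15:82433437-82456845, plus strand), known as a testosterone hydroxylase of male mouse liver, was at 28.8, 34.3 and 23.4 CPM against 12.7, 9.24 and 7.55 CPM, a log2 fold change of -1.56 (SE 0.34, adjusted p = 0.0355, edgeR). Each deleted library was again below each floxed one. Cyp2c68 (chr19:39688834-39741054, minus strand) was at 72.9, 80.6 and 72.8 CPM against 43.7, 39.9 and 25.5 CPM, a log2 fold change of -1.06 (SE 0.20, adjusted p = 0.0276, edgeR). All 3 calls were lost in 5 of the 12 fits that left out 1 library. Those were the fits without any 1 CBPWTp53-floxed library or without CBPWTp53ΔIEC replicate 2 or 3. The adjusted p was up to 0.125 for Cyp2d10 and 0.154 for Cyp2d9 and Cyp2c68 (edgeR). The Cyp2d9 call was also lost with no filter on low counts (adjusted p = 0.0965, edgeR). Of the 3, only Cyp2d10 stayed called with the replicate block. These 3 genes share transcript sequence with near-identical copies, so reads could be split between copies in the authors' counting. In 50-base windows, 43.3% of Cyp2c68 also occurred in another gene, mostly in Cyp2c40, as did 35.8% of Cyp2d10, mostly in Cyp2d11. For Cyp2d9 the share was 21.8%, and the largest share with any single gene was 6.76%, with Cyp2d12. Cyp2d9 also overlaps 4 other annotated genes, 1 of them, Gm49419, on the opposite strand.

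In family 4, Cyp4f15 (chr17:32685627-32703352, plus strand) had 3, 1 and 3 reads in the CBPWTp53-floxed libraries and 29, 36 and 68 reads in CBPWTp53ΔIEC. It belongs to the Cyp4f subfamily of fatty acid hydroxylases and shared 2.28% of its 50-base windows with other genes. The summed 133 reads against 7, scaled by library size, gave a ratio of 21.1 with an exact 95% counting interval of 9.98 to 53.6. The fitted log2 fold change was 4.30 (SE 0.55, adjusted p = 0.00896, edgeR), and the call was lost without CBPWTp53-floxed replicate 2 (adjusted p = 0.0966, edgeR) or replicate 3 (adjusted p = 0.0814, edgeR). The other 5 members of the Cyp4f cluster, which surround Cyp4f15 on chromosome 17, had log2 fold changes between -0.06 and 0.31 and were not called.

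Without regard to the test, 15 members had CBPWTp53ΔIEC and CBPWTp53-floxed values that did not overlap, 39.5% of the 38 against 30.8% of all genes. Of these 5 were higher, Cyp2c55, Cyp2d22, Cyp3a25, Cyp4f15 and Cyp51, and 10 were lower, where 16.1% of all genes were higher and 14.7% lower. The 15 include Cyp4f15 and Cyp11a1, each a member only through the p53 state in which it is higher. Nothing is read from these shares for them. Cyp51 was at 98.2, 89.6 and 84.1 CPM against 111, 167 and 164 CPM, a log2 fold change of 0.71 (SE 0.21, adjusted p = 0.0854, edgeR). Cyp2c55 was at 1908, 1824 and 1645 CPM against 2715, 2438 and 2527 CPM, a log2 fold change of 0.51 (SE 0.21, adjusted p = 0.183, edgeR). Every deleted library was above every floxed one in both genes, but neither passed the adjusted threshold in the edgeR fit of all 12 libraries. Cyp51 was called by DESeq2, in edgeR on the 2 groups alone, without CBPWTp53ΔIEC replicate 1 or CBPAAp53ΔIEC replicate 3, with the alpha-defensin covariate, and without the 4 libraries high in alpha-defensins, at 0.87 (adjusted p = 1.71e-06, edgeR). Cyp2c55 was called in the fit of the 2 groups alone. Cyp2d22 had a log2 fold change of 0.48 (SE 0.14, adjusted p = 0.0793, edgeR), opposite in sign to its cluster neighbours Cyp2d10 and Cyp2d9; without the 4 libraries high in alpha-defensins it was called, at 0.56 (adjusted p = 0.00308, edgeR).

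Cyp24a1 had 2, 0 and 0 reads in CBPWTp53-floxed and 75, 14 and 1 reads in CBPWTp53ΔIEC. The summed ratio was 50.1 with a counting interval of 13.5 to 420, but the groups overlapped and the adjusted p was 0.117 in edgeR. Most of these reads came from 1 library, CBPWTp53ΔIEC replicate 1, which also had the highest alpha-defensin sum; the part of that in the result was not tested. Without the 4 libraries high in alpha-defensins its log2 fold change was 3.22 (adjusted p = 0.0813, edgeR). In CBPAA, Cyp24a1 had 0, 1 and 1 reads against 30, 1 and 11, a summed ratio of 20.8 with a counting interval of 5.41 to 177, and the groups again overlapped. The 30 and 11 reads were in CBPAAp53ΔIEC replicates 1 and 3, which are both high in alpha-defensins. Cyp24a1 was called by DESeq2 in CBPWT and for averaged p53 deletion, and in edgeR for averaged deletion without CBPWTp53ΔIEC replicate 1 or without CBPWTp53ΔIEC replicate 3. Cyp27b1, the opposing vitamin D enzyme, had 17 summed reads in each CBPWT group.

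Among the Cyp3a genes, Cyp3a25 had 8, 17 and 27 reads in CBPWTp53-floxed and 193, 59 and 54 in CBPWTp53ΔIEC (log2 fold change 2.91, SE 1.00, adjusted p = 0.136, edgeR). In CBPAA it had 8, 126 and 13 reads against 47, 25 and 97, with overlapping groups. The 3 libraries with the most Cyp3a25 reads were among the 4 high in alpha-defensins, and without those 4 the CBPWT value was 1.72 (adjusted p = 0.00123, edgeR). Cyp3a11, the main Cyp3a enzyme of mouse liver, had at most 50 reads in any library and its log2 fold changes were 2.35 in CBPWT and -1.36 in CBPAA, neither called. Each rests on 1 library high in alpha-defensins: CBPWTp53ΔIEC replicate 1 had 50 reads of Cyp3a11 against 5 and 11 in the other replicates, and CBPAAp53-floxed replicate 2 had 43 against 2 and 1. Without the 4 libraries the values were 0.58 and -0.69.

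**Figure D2:**
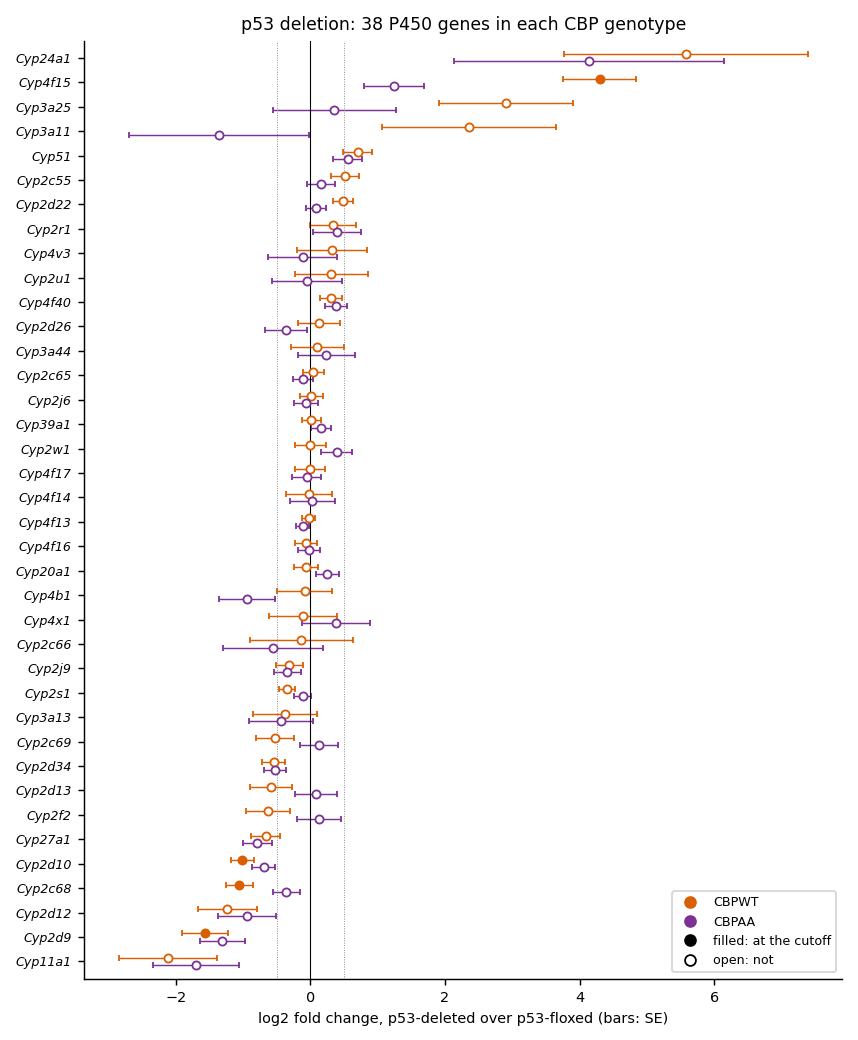
Log2 fold change with its standard error for p53 deletion in CBPWT crypts (orange) and in CBPAA crypts (purple), for the 38 members tested. Filled points passed the cutoff; the 4 filled points are Cyp4f15, Cyp2d10, Cyp2d9 and Cyp2c68 in CBPWT, and no point is filled in CBPAA.

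The same deletion was then compared beside the AA form of CBP. In CBPAA crypts 4 genes were called in all, 0.0274% of those tested, and 0 members were among them in edgeR. At an unadjusted p under 0.05 there were 9 members, 23.7% of those tested against 12.6% of all genes. The 9 include Cyp4f15 and Cyp11a1, each a member only through the p53 state in which it is higher. Nothing is read from this share for them. DESeq2 called 2, Cyp2d10 and Cyp2d9, where it called 0.513% of all genes. The smallest adjusted p of a member was 0.32 in edgeR, and there were 3 called members without CBPAAp53ΔIEC replicate 3, where 2.19% of all genes were called, and 8 without the 4 libraries high in alpha-defensins, where 6.92% were. That last setting leaves 1 CBPAAp53ΔIEC library, assumed to vary like the other groups, against 2 CBPAAp53-floxed ones. The 3 were Cyp51, higher, and Cyp2d9 and Cyp4b1, lower. Among the 8, Cyp51 and Cyp4f40 were higher, and Cyp27a1, Cyp2c66, Cyp2d26, Cyp3a13, Cyp4b1 and Cyp4v3 were lower. With the alpha-defensin covariate edgeR called 6 members, where it called 8.75% of all genes. These were Cyp27a1, Cyp2d10, Cyp2d26, Cyp2d9, Cyp4b1 and Cyp51. The values of 6 members did not overlap between the groups, 15.8% against 15% of all genes. Cyp4f15 was higher, where 7.86% of all genes were. Cyp2d10, Cyp2d9, Cyp27a1, Cyp11a1 and Cyp2j9 were lower, where 7.18% of all genes were. Cyp4f15 and Cyp11a1 are members only through the p53 state in which each is higher, so nothing is read from their shares.

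Cyp2d10 was at 47.6, 42.0 and 35.7 CPM in CBPAAp53-floxed and 20.1, 28.9 and 28.5 CPM in CBPAAp53ΔIEC, a log2 fold change of -0.69 (SE 0.17, adjusted p = 0.32, edgeR). Cyp2d9 was at 43.1, 25.1 and 22.5 CPM against 8.56, 9.33 and 18.7 CPM, a log2 fold change of -1.31 (SE 0.33, adjusted p = 0.32, edgeR). In both genes every CBPAAp53ΔIEC library was below every CBPAAp53-floxed library. The highest Cyp2d9 value, 43.1 CPM, was in CBPAAp53-floxed replicate 1, the library low in Xist, which was also the highest of the 12 for Cyp2d12, at 61.5 CPM against 20.6 in each of the other replicates, and for Cyp2d34. Without this library the Cyp2d9 log2 fold change in CBPAA was -0.97 (adjusted p = 0.326, edgeR). Cyp4f15 had 12, 15 and 5 reads against 40, 16 and 20, a summed ratio of 2.35 with a counting interval of 1.54 to 3.67. Cyp27a1, the mitochondrial sterol hydroxylase of bile acid synthesis, was at 38.1, 40.7 and 27.2 CPM against 19.0, 17.4 and 25.0 CPM, a log2 fold change of -0.79 (SE 0.22, adjusted p = 0.32, edgeR). Without the 4 libraries high in alpha-defensins, with 1 deleted library left, Cyp27a1 was called, at -0.91 (adjusted p = 0.00854, edgeR).

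The difference between the 2 p53 comparisons was tested as an interaction. Only 1 gene in all was called, 0.00684% of those tested, and 0 members in edgeR. At an unadjusted p under 0.05 there were 2 members, against 10.3% of all genes, Cyp4f15 with an interaction of -3.06 on the log2 scale (SE 0.74) and Cyp2c68 with 0.70 (SE 0.28), both at an adjusted p of 0.482 in edgeR. The calls of Cyp2d10, Cyp2d9, Cyp2c68 and Cyp4f15 in CBPWT and not in CBPAA are therefore not shown to differ between the CBP genotypes.

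Averaged over both CBP genotypes, p53 deletion was compared with 6 mice on each side. This comparison uses the same libraries as the 2 above. It called 511 genes, 3.5% of those tested, and 8 members. Cyp51 rose, where 2.77% of all genes rose, and Cyp2d10, Cyp2d9, Cyp2d34, Cyp2c68 and Cyp27a1 fell, where 0.732% of all genes fell. Cyp4f15 also rose and Cyp11a1 also fell. Each is a member only through the p53 state in which it is higher, so neither is set against these shares. Leaving out 1 library gave 3 to 10 members, with 3 without CBPWTp53-floxed replicate 2 or 3, 4 without CBPWTp53-floxed replicate 1, CBPAAp53-floxed replicate 1, CBPWTp53ΔIEC replicate 2 or CBPAAp53ΔIEC replicate 1 or 2, and 5 without CBPWTp53ΔIEC replicate 3; in these settings 0.705% to 7.18% of all genes were called. Cyp4f15, Cyp2d10 and Cyp2d9 stayed called whichever library was left out. In the 6 against 6 libraries, 4 members did not overlap, 10.5% against 1.76% of all genes. Cyp2d10, Cyp2d9 and Cyp2j9 were lower, as were 0.726% of all genes. Cyp4f15 was higher, where 1.03% of all genes were. The 10.5% includes Cyp4f15, a member only through its reads with p53 deleted, so nothing is read from these shares for it.

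In the Cyp2d cluster at chr15:82370527-82794294, the averaged log2 fold change was -1.43 for Cyp2d9 (SE 0.24, adjusted p = 0.0117, edgeR) and -0.85 for Cyp2d10 (SE 0.12, adjusted p = 0.00842, edgeR). Cyp2d34 (chr15:82615965-82620946, minus strand) was at 208, 220 and 205 CPM in CBPWTp53-floxed, 292, 225 and 192 in CBPAAp53-floxed, 162, 147 and 124 in CBPWTp53ΔIEC and 131.5, 166 and 195 in CBPAAp53ΔIEC, an averaged log2 fold change of -0.54 (SE 0.12, adjusted p = 0.0228, edgeR). The highest deleted library of Cyp2d34 thus passed the lowest floxed one. Its call was kept in 4 of the 12 fits that left out 1 library, those without CBPAAp53-floxed replicate 2 or 3, CBPWTp53ΔIEC replicate 1 or CBPAAp53ΔIEC replicate 3 (adjusted p up to 0.0693 in the others, edgeR). Cyp2d12, between Cyp2d9 and Cyp2d34 on the chromosome, had -1.08 and was not called (adjusted p = 0.0731, edgeR), while Cyp2d26 at the edge of the cluster had -0.12 and Cyp2d22 at the other edge 0.28. The 7 Cyp2d members include Cyp2d13, with no position in the annotation used. Over the 7 the median was -0.54 and 3 were called lower, where 0.732% of all genes were. The cluster was named because it holds called genes, so nothing is read from this share.

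In the Cyp2c cluster at chr19:39007019-39886799, only Cyp2c68 of 5 members was called, at -0.71 (SE 0.14, adjusted p = 0.0175, edgeR). Its call was lost without CBPWTp53-floxed replicate 2 or 3 (adjusted p up to 0.0573, edgeR). Cyp2c68 was at 59.7, 51.2 and 48.6 CPM in CBPAAp53-floxed and 29.8, 44.6 and 49.9 CPM in CBPAAp53ΔIEC. The AA groups thus overlapped where the WT groups did not. The abundant Cyp2c55 and Cyp2c65 had 0.34 and -0.03 and were not called.

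Of the members with fixed roles, Cyp27a1 (chr1:74713574-74737892, plus strand) had an averaged log2 fold change of -0.73 (SE 0.15, adjusted p = 0.0207, edgeR). Its call was kept in 4 of the 12 fits that left out 1 library, those without CBPAAp53-floxed replicate 2 or 3, CBPWTp53ΔIEC replicate 1 or CBPAAp53ΔIEC replicate 3 (adjusted p up to 0.0686 in the others, edgeR). Cyp11a1 (chr9:58006411-58027023, plus strand) had 11, 8 and 21 reads in CBPWTp53-floxed, 22, 18 and 9 in CBPAAp53-floxed, 3, 3 and 2 in CBPWTp53ΔIEC and 0, 7 and 8 in CBPAAp53ΔIEC. Its summed ratio was 0.22 in CBPWT and 0.30 in CBPAA, and its averaged log2 fold change was -1.91 (SE 0.49, adjusted p = 0.0417, edgeR) on these few reads. Its call was kept in 3 of these 12 fits, those without CBPAAp53-floxed replicate 2, CBPWTp53ΔIEC replicate 1 or CBPAAp53ΔIEC replicate 3 (adjusted p up to 0.122 in the others, edgeR). Cyp11a1 overlaps Gm17322 on the same strand, so that reads of the 2 genes cannot always be separated. Cyp51 (chr5:4081145-4104746, minus strand, overlapping Akap9 on the other strand) was at 93.5, 82.3 and 90.9 CPM in CBPAAp53-floxed and 133, 173 and 86.4 CPM in CBPAAp53ΔIEC, and its averaged log2 fold change was 0.63 (SE 0.15, adjusted p = 0.0333, edgeR). Its call was kept in 2 of the 12 fits that left out 1 library, those without CBPWTp53ΔIEC replicate 1 or CBPAAp53ΔIEC replicate 3 (adjusted p up to 0.0985 in the others, edgeR), and was lost with no filter on low counts. The 2 deleted libraries with the lowest Cyp51, CBPWTp53ΔIEC replicate 1 and CBPAAp53ΔIEC replicate 3, were also the 2 with the lowest summed proliferation markers, at 239 and 171 TPM, against 399 to 516 TPM in the other 4 deleted libraries and 146 to 203 TPM in the floxed ones. All 10 proliferation markers were called higher in the averaged comparison; their part in the Cyp51 result was not tested.

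**Figure D3:**
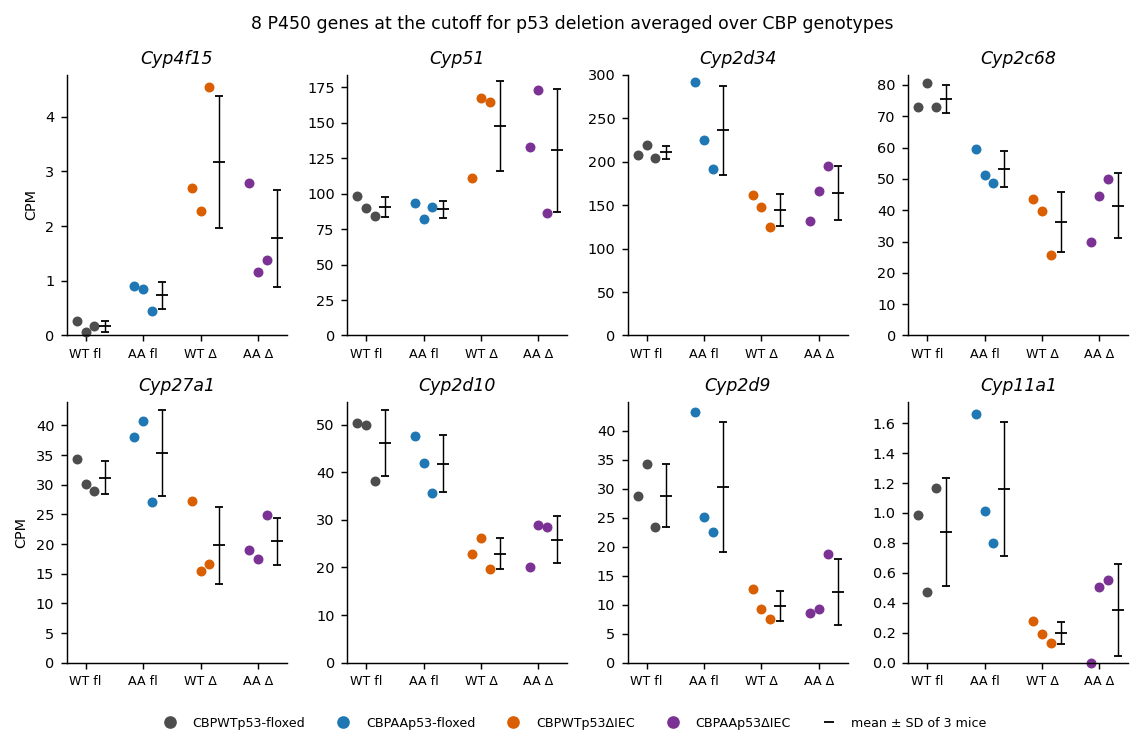
CPM by group of the 8 members called for p53 deletion averaged over CBP genotypes; points are single mice and bars the mean ± SD of 3 mice, with every axis from 0. Cyp4f15, Cyp2d10 and Cyp2d9 separate the 6 floxed from the 6 deleted libraries, while the other 5 genes overlap in at least 1 library.

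The CBP genotypes were compared within each p53 state. Among p53-floxed mice 0 genes were called in edgeR, 0% of those tested, and DESeq2 called 34; 3 members had an unadjusted p under 0.05, against 8.04% of all genes. The values of 6 members did not overlap, 15.8% against 19.4% of all genes: Cyp2c66, Cyp2d26, Cyp4f15 and Cyp4v3 were higher in CBPAA, as were 9.75% of all genes, and Cyp20a1 and Cyp2c68 lower, as were 9.62%. With the alpha-defensin covariate the log2 fold change of Cyp2c66 turned from 0.69 to -0.34 and that of Cyp2d26 was 0.02. Cyp4f15, at 12, 15 and 5 reads against 3, 1 and 3, had the largest of these, a log2 fold change of 2.22 (SE 0.62, adjusted p = 0.618, edgeR). Cyp2c68 had -0.50 (SE 0.20, adjusted p = 0.618, edgeR).

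Among p53ΔIEC mice 1 gene was called, 0.00684% of those tested, and 0 members in edgeR. The values of 4 members did not overlap, 10.5% against 9.27% of all genes, and all 4 were lower in CBPAA, where 4.5% of all genes were lower and 4.76% higher. At an unadjusted p under 0.05 there were 2 members, Cyp2d22 and Cyp3a44, 5.26% of those tested against 3.57% of all genes. Their log2 fold changes were -0.37 for Cyp2c55, -0.21 for Cyp2c65, -0.37 for Cyp2d22 and -0.91 for Cyp3a44, each with an adjusted p of 0.985 in edgeR. Averaged over p53 states, CBP genotype likewise had 1 called gene, 0.00684% of those tested, and 0 members in edgeR; 1 member, Cyp3a44, had an unadjusted p under 0.05, against 2.57% of all genes.

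The genes that work beside P450 enzymes were counted from lists. Of the 8 electron donors tested (Por, the P450 oxidoreductase, is the best known), 0 of 8 were called by p53 deletion in either CBP genotype, and of 12 heme synthesis and breakdown genes 0 were called in either. Of 7 tested genes of the arachidonic acid pathway beside P450s, 0 were called in either. Over all genes tested, 3.15% were called in CBPWT and 0.0274% in CBPAA. Of 17 tested nuclear receptors and aryl hydrocarbon receptor genes, 1 was called in CBPWT and 0 in CBPAA. That gene was Ppara, the fatty acid sensing receptor, at 29.6, 31.5 and 31.1 CPM in CBPWTp53-floxed and 14.7, 19.6 and 15.7 CPM in CBPWTp53ΔIEC (log2 fold change -0.88, SE 0.22, adjusted p = 0.0470, edgeR). In CBPAA it was at 19.2, 10.9 and 21.1 CPM against 19.9, 17.2 and 26.7 CPM, with overlapping groups, and the interaction was not called (adjusted p = 0.482, edgeR). In CBPWT only 2 genes in all were called without CBPWTp53-floxed replicate 2, and 1 without replicate 3. Calls there, such as that of Ppara, can thus depend on single libraries.

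Among 3 tested epoxide hydrolases, Ephx1 fell in both CBP genotypes, where 0.856% of all genes fell in CBPWT and 0.0274% in CBPAA. It encodes the microsomal enzyme that hydrolyses epoxides made by P450 enzymes. Ephx1 was at 15.3, 14.6 and 14.3 CPM in CBPWTp53-floxed and 3.36, 4.30 and 5.01 CPM in CBPWTp53ΔIEC, a log2 fold change of -1.79 (SE 0.22, adjusted p = 0.00896, edgeR). In CBPAA it was at 13.8, 18.05 and 20.8 CPM against 4.59, 5.86 and 3.38 CPM, a log2 fold change of -1.93 (SE 0.22, adjusted p = 0.00475, edgeR). All 6 deleted libraries were below all 6 floxed ones.

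The P450 genes were compared again without the 4 libraries high in alpha-defensins, and with the alpha-defensin sum as a covariate. Both settings were added after seeing the data. Without the 4 libraries, 14 members were called for averaged p53 deletion, where 11.1% of all genes were called, and with the covariate also 14, where 11% were. All 8 members called in the fit of 12 libraries were among them in both settings. The 5 members Cyp3a13, Cyp4b1, Cyp2d26, Cyp4v3 and Cyp2c66 were called under both settings and not in the fit of all 12 libraries, and all 5 were then lower with p53 deleted. Cyp3a13 went from -0.40 (adjusted p = 0.527, edgeR) to -0.97 without the 4 libraries and -1.13 with the covariate. Cyp4b1 went from -0.51 to -0.89 and -0.99, and Cyp2d26 from -0.12 to -0.56 and -0.60. Cyp4v3, a family 4 fatty acid hydroxylase, changed sign from 0.11 to -0.64 and -0.77, and Cyp2c66 went from -0.34 to -1.90 and -1.59. In CBPWTp53ΔIEC, Cyp3a13 was at 292 CPM in replicate 1, the library with the highest defensin sum, and at 88.4 and 98.0 CPM in the other replicates. In CBPAAp53ΔIEC, Cyp3a13 was at 245 CPM in replicate 3, 116 CPM in replicate 1 and 105 CPM in replicate 2. Replicate 1 of that group is also among the 4 libraries high in alpha-defensins. Cyp4f14, abundant in family 4, was at 233 CPM in CBPWTp53ΔIEC replicate 1 and at 101 and 106 CPM in the other replicates, against 157, 151 and 136 CPM in CBPWTp53-floxed; its CBPWT log2 fold change was -0.02 in all 12 libraries and -0.52 without the 4 (adjusted p = 0.00127, edgeR). What sets these libraries apart was not tested.

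Other members were not called for p53 deletion in the fit of all 12 libraries. Cyp2c65 was at 275, 239 and 263 CPM in CBPWTp53-floxed and 271, 266 and 264 CPM in CBPWTp53ΔIEC, a log2 fold change of 0.04 (SE 0.15). Cyp2j6, an arachidonic acid epoxygenase of the gut, had 0.02 in CBPWT and -0.07 in CBPAA, and Cyp4f13 had -0.03 and -0.11. Cyp2w1 had 0.00 and 0.39. Cyp2s1 was at 146, 153 and 149 CPM in CBPWTp53-floxed and 117, 115 and 120 CPM in CBPWTp53ΔIEC, without overlap, a log2 fold change of -0.35 (SE 0.13, adjusted p = 0.136, edgeR), and had -0.12 in CBPAA. The missing calls do not show that levels were equal.

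**Figure D4:**
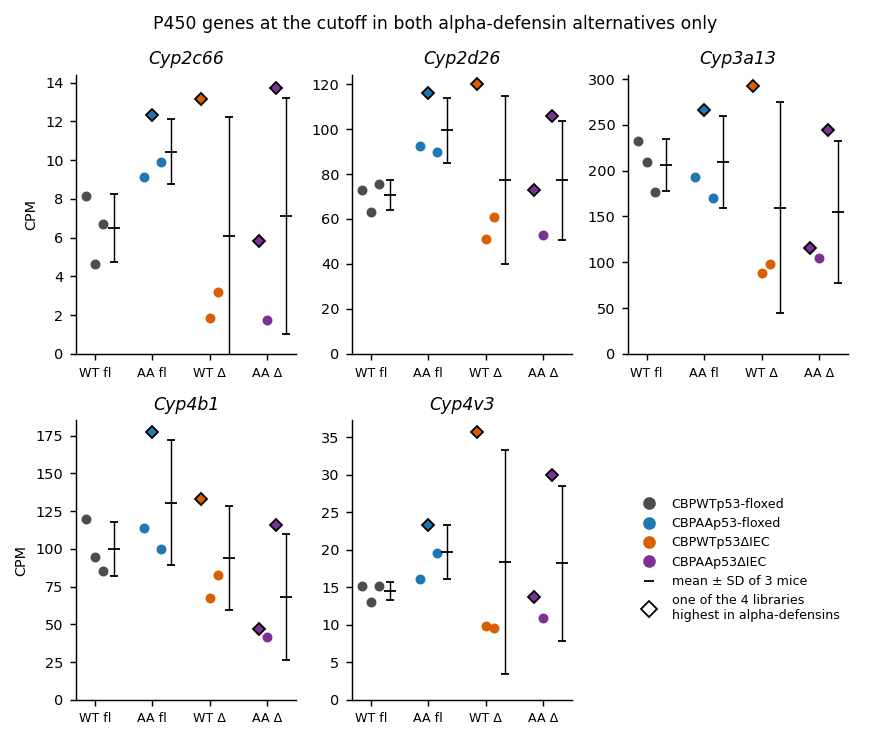
CPM by group of Cyp2c66, Cyp2d26, Cyp3a13, Cyp4b1 and Cyp4v3; circles are single mice, diamonds the 4 libraries with the highest alpha-defensin sums, and bars the mean ± SD of 3 mice, cut at 0 for Cyp2c66. For Cyp3a13 the diamond at 292 CPM in CBPWTp53ΔIEC and the diamond at 245 CPM in CBPAAp53ΔIEC lie above the other libraries of their groups.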

How the data were processed

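RNA was taken from colonic crypts freed with 30 mM EDTA, and poly(A) RNA libraries were made with a kit that the labels name as stranded and the study's methods name without that word. Per the labels and the submitters' processing notes, reads were trimmed with fastp 0.20.0, checked with FastQC 0.11.9, aligned to GRCm38 with HISAT2 2.1.0, handled with SAMtools 1.9 and counted with featureCounts of Subread 2.0.1; the strand setting of the counting is not given in the sources used here. The authors deposited raw counts and TPM per gene and library, together with 15 columns of their own fold changes and p-values for comparisons between groups, which were not used.

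The quasi-likelihood model of edgeR 4.0.16 (R 4.3.3) was fitted robustly to all 12 libraries as 1 factor of 4 groups, after TMM scaling and removal of low genes by filterByExpr at its count of 10, with 7 contrasts and Benjamini-Hochberg adjustment over the 14610 genes tested; SE was taken from the F statistic. The study's cutoff was kept: log2 fold change above 0.5 in size and adjusted p under 0.05. TPM as deposited gave levels between genes, and CPM differences between groups. Every member was tested on the whole table, and list counts carry no test of their own. Genes were named when called in any contrast, when among the 10 highest by mean TPM, when among the 5 non-overlapping members with the smallest unadjusted p in a comparison, as textbook genes of their role, as members of a cluster holding a called gene, or, outside the family, when called from a pathway list or the most abundant of one. The members, lists and rules were chosen with earlier results of these data known. Positions come from GENCODE M21 and 38 of 39 members matched by identifier. Shared sequence was the share of a gene's 50-base windows found in transcripts of other genes, and 15 members also overlap another gene. Tables were prepared with Python 3.11.15, pandas 2.3.3, Biopython 1.88 and matplotlib 3.10.9. The scripts were tested on simulated counts. The labels name no batch or date. Alternatives were DESeq2 1.42.0, DESeq2 size factors in edgeR, no filter or a stricter one on low counts, no fold change cutoff, fits of the 2 groups alone, a replicate block, leaving out each library, and the defensin settings. The p-values set a difference against the spread between mice within groups, pooled over the groups in the fit. Intervals on reads cover counting error only.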

Additional observations from a re-analysis of the deposited data

How the results depend on the processing

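DESeq2 called 871 genes and 9 P450 members for p53 deletion in CBPWT (460 and 4 in the edgeR fit), 75 and 2 in CBPAA, and 770 genes for the averaged comparison. It called 34 genes for CBP genotype in p53-floxed mice, 2 in p53ΔIEC mice, 30 for the interaction and 5 for CBP genotype averaged. Without a filter on low counts there were 11 genes for p53 deletion in CBPAA, 3 for CBP genotype in p53-floxed mice and 2 for the interaction. With edgeR on the groups compared alone there were 723 genes and 8 members in CBPWT, 1 gene in CBPAA and 0 for CBP genotype in p53ΔIEC mice. Without the 4 libraries highest in alpha-defensins, 1729 genes and 15 members were called in CBPWT, 1053 and 8 in CBPAA, 1692 and 14 averaged, 42 and 8 genes for CBP genotype in p53-floxed and p53ΔIEC mice, and 35 for the interaction. With the alpha-defensin level as covariate the counts were 1232 and 9 in CBPWT, 1278 and 6 in CBPAA, 1608 and 14 averaged, and 1 gene for CBP genotype in p53-floxed mice. Under the covariate the log2 fold change of Cyp2c66 for CBP genotype in p53-floxed mice turned from 0.69 to -0.34. The cause of these changes was not tested.

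Leaving out 1 library at a time gave 1 to 906 genes and 0 to 7 members in CBPWT, 1 to 326 and 0 to 3 in CBPAA, and 105 to 1073 and 3 to 10 averaged. For CBP genotype it gave 0 to 2 genes in p53-floxed and 0 to 1 in p53ΔIEC mice, and 0 to 1 for the interaction. A tally was made for 27 pairs of a member and a comparison. These were the called pairs and, in comparisons of 2 single groups, the 5 non-overlapping members with the smallest p. Cyp2j9, which did not overlap in the averaged p53 comparison and was not called, was thus left out. Under the alternatives other than the fit of the 2 groups alone, 506 values were counted. Of these, 434 kept their direction and their side of the threshold, 61 lost the call, 10 gained it and 1 changed sign. Members outside these pairs were not counted; among them Cyp4v3 changed sign for averaged p53 deletion, from 0.11 to -0.64 without the 4 libraries and -0.77 with the covariate.

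The replicate numbers were not taken to pair the samples. Deviations from group means correlated between -0.526 and 0.547 for same-numbered libraries and between -0.658 and 0.645 for differently numbered ones. Pairing itself was not tested. With the replicate block there were 32 genes and 2 members in CBPWT, 2 genes in CBPAA, 304 averaged, and 0 each for CBP genotype in p53ΔIEC mice and the interaction. Cyp11a1, Cyp2d34 and Cyp51 were not among the members called for averaged p53 deletion with the block, and Cyp24a1 was; in CBPWT, Cyp2d9 and Cyp2c68 were not. Depth leaves wide counting intervals for members with few reads, such as 13.5 to 420 for the Cyp24a1 ratio in CBPWT.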
